A study of Mus musculus with 16 samples.

Results

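Control CD4 T cells, with both floxed copies of Ezh2 intact, were compared after iTreg culture and after Th0 culture. The comparison rests on 6 RNA-seq libraries of the 16 in the series (12 RNA and 4 ChIP). The members were chosen by their labels: the 3 iTreg libraries numbered 154, 155 and 177 and the 3 Th0 libraries numbered 173, 176 and 177, all from Ezh2fl/fl mice without Cre. The other RNA libraries, 3 per culture, came from Ezh2fl/fl.CD4Cre mice, in which the enzyme Ezh2 is deleted in T cells, and are used here only where the change in control cells is set against theirs. Both cultures began from flow-sorted naive CD4 T cells, stimulated with 5 ug/ml of plate-bound anti-CD3 and 1 ug/ml of soluble anti-CD28. The Th0 medium contained 50 U of IL-2 and the iTreg medium 200 U/ml, and TGF-beta1 at 5 ng/ml was added to iTreg cultures alone. By their titles the iTreg libraries are from day 5 and the Th0 libraries from day 4, although the harvest is described as day 4 for both. TGF-beta1, the amount of IL-2 and the day therefore differ together between the groups, and their parts in any difference cannot be told apart. The library numbers differ between the groups as well, apart from 177, and the labels do not say what they stand for.

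TGF-beta is a secreted cytokine that is released from a latent form. It binds the receptors Tgfbr2 and Tgfbr1, which phosphorylate Smad2 and Smad3. These join Smad4 and enter the nucleus, where they switch genes on and off, among them Smad7, Skil and other inhibitors that turn the pathway down again. In an activated naive CD4 T cell, TGF-beta together with IL-2, which signals through STAT5, induces Foxp3, the lineage factor of regulatory T cells, and such cells are called induced regulatory T cells (iTreg). TGF-beta is also known to restrain the T helper 1 program in T cells. Th0 cells are activated without a polarising cytokine.

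Each library held between 24515454 and 26973319 counted reads, so depth was close to equal. Values are given as CPM (a gene's reads scaled to the library's total of counted reads), for Th0 173, 176 and 177 and then for iTreg 154, 155 and 177, in that order. CPM compare 1 gene across libraries and not 1 gene with another, since they are not divided by gene length. Ezh2 itself (chromosome 6, 47530274 to 47595341 in mm10) had 307, 295 and 312 CPM in Th0 and 250.7, 241 and 166 CPM in iTreg, and the groups did not overlap (log2 change -0.59, SE 0.16, adjusted p = 0.0252). That call was lost without any 1 of the Th0 libraries (adjusted p = 0.0728 to 0.0785). The median log2 change of 21 housekeeping genes was -0.46, not far from that of Ezh2. The libraries that carried the Cre had 48.7 to 169 CPM of Ezh2. The T cell identity genes Cd3d, Cd3e, Cd4 and Lck were not called changed, and the summed level of their list was 6384, 6477 and 6320.2 CPM in Th0 and 5743, 5634 and 6010.2 CPM in iTreg. In that list 5 of 14 tested members were called lower, among them Cd2 (-0.68), Cd5 (-0.34), Cd6 (-0.54) and Themis (-0.51), and the calls of Cd2, Cd6 and Themis were lost without iTreg 155 (adjusted p = 0.0586, 0.0623 and 0.0926) and without any 1 of the Th0 libraries (0.0645 to 0.102), and those of Cd6 and Themis also without iTreg 154 (0.0642 and 0.0806). Higher calls numbered 2 scaled by library size alone, and lower calls numbered 2 scaled by library size alone or in the fit of 12 libraries or without iTreg 154 and 1 without iTreg 155 or without any 1 of the Th0 libraries. Without iTreg 177, 10 were called lower and 1 higher. Markers of other cell types were summed in the same way. B cell markers had 34.1, 30.7 and 56.8 CPM in Th0 and 15.5, 14.4 and 16.5 CPM in iTreg. Dendritic cell markers had 134, 98.8 and 101 CPM in Th0 and 39.6, 23.7 and 14.5 CPM in iTreg, nearly all of it from Bst2, which is also interferon-stimulated, and Itgax, Clec9a and Cd209a had 0 reads in every Th0 library. Erythroid and platelet markers had 18.5, 20.9 and 23.5 CPM in Th0 and 74.7, 76.97 and 54.0 CPM in iTreg, nearly all of it from Gata1, and Hba-a1, Hbb-b1, Pf4 and Ppbp had 0 reads in all 6 libraries. No myeloid marker other than Itgam and Cd68 passed the filter on low counts, Lyz1, Cd14, Elane, S100a8 and S100a9 had 0 reads in all 6 libraries, and 0 of 9 NK, NKT and gamma-delta T cell markers passed.

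The iTreg library 177 stood apart from the other two iTreg libraries. In a principal component analysis of the 6 libraries the first component held 83.0% of the variance and separated the cultures. The Th0 libraries lay between 43.6 and 46.1 on it, iTreg 154 and 155 at -27.6 and -34.2, and iTreg 177 farther out at -71.9. Counts of iTreg 154 and 155 differed with a chi-square of 9.81 per degree of freedom, like the Th0 pairs (8.96 to 12.3), whereas iTreg 177 differed from 154 and 155 with 177 and 144. Among genes called higher in iTreg, the level in 177 lay farther from the Th0 mean than in both 154 and 155 for 72.7%, and among genes called lower for 76.8%. The Th0 library 177 did not stand apart. Values without iTreg 177 are given beside results that they change.

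The cultures differed in a large share of genes. Of 12179 genes that passed the filter, 6500 (53.4%) were called, 3238 (26.6%) higher and 3262 (26.8%) lower in iTreg (edgeR quasi-likelihood test, Benjamini-Hochberg adjusted p under 0.05). With the further condition of a change of at least 2-fold, 2431 genes (20.0%) were called, 1547 (12.7%) higher and 884 (7.26%) lower. CPM of the 2 groups did not overlap for 8615 genes (70.7%). The median fitted log2 change over all genes tested was 0.003. A count of members of a list is read against these shares. Leaving out 1 Th0 library lowered the number called to 3775 (173), 3248 (176) and 3553 (177), and leaving out iTreg 177 raised it to 8572. Without iTreg 177, 4295 genes were higher and 4277 lower of 12333 tested. Without Th0 173 these counts were 2006 and 1769 of 12415. They were 1746 and 1502 of 12410 without Th0 176, and 1886 and 1667 of 12395 without Th0 177. Counts of list members under another setting move with these totals and are read against them. Scaling by library size alone in place of TMM moved the median of all genes to 0.116 and the split to 3905 higher and 2383 lower, and a fit of all 12 RNA libraries gave 2555 higher and 1472 lower. The change differed between control and Ezh2-deleted cells for 577 of 12845 genes tested in that fit (4.49%) and for 44 of 178 named genes, most of which were chosen for a change in control cells. Without 1 deleted iTreg library, that of 21910114 counted reads, it differed for 2552 genes. In the fit of 12 libraries 30 of the genes named here with a test lost their call: Ezh2, Ctla4, Prdm1, Ecm1, Ccr4, Rel, Cdc20, Ccnb1, Ccna2, Plk1, Gins1, Mcm2, Mcm10, Rfc3, Gpi1, Pmvk, Dhcr7, Creld2, Phf1, Dnmt3b, Cd6, Themis, Vcp, Xcr1, Gzmb, S1pr1, Foxo1, Slc7a5, Shmt2 and Irf7. Scaling by library size alone ended the call of Ezh2, Gpi1, Pmvk, Dhcr7, Cd6, Themis and Mcm2.

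The series names biological replicates without naming the animals, so p-values measure the spread between these libraries, which may be technical in part. Genes are named by a rule given with the processing, and Entpd1, Gpr15, Tgfbr3, Id2, Dab2, Cxcr3, Il12rb2, Gzmb, S1pr1, Foxo1, Satb1, Mcm2, Slc7a5, Shmt2, Atf4, Ifi44, Irf7, Cdkn1b, Ldha and Lif, as well as other list members given with a log2 change alone, were chosen after their values were seen. In bulk RNA, more expressing cells and more RNA per cell cannot be told apart. Whether counting used strand is not given in the sources used here, so the values of Foxp3, Nrp1, Itgae, Il2, Gata3, Peli2, Cx3cr1, Sec1, Tgm2, Tgfb3, Stat3, Cdc20, Ccna2, Bcl2a1b, Pfkm, Cebpb, Uqcrc2, Cd74, Dnmt3a, Themis, Tbp, B2m, Vcp, Ms4a1, Shmt2 and Irf7, whose intervals overlap that of another gene, may include reads of the neighbour or lack reads shared with it. In the 2 control ChIP libraries the intervals of Foxp3, Bcl2a1b, B2m and Ms4a1 had 0 reads, the reason for which was not tested.

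**Figure D1:**
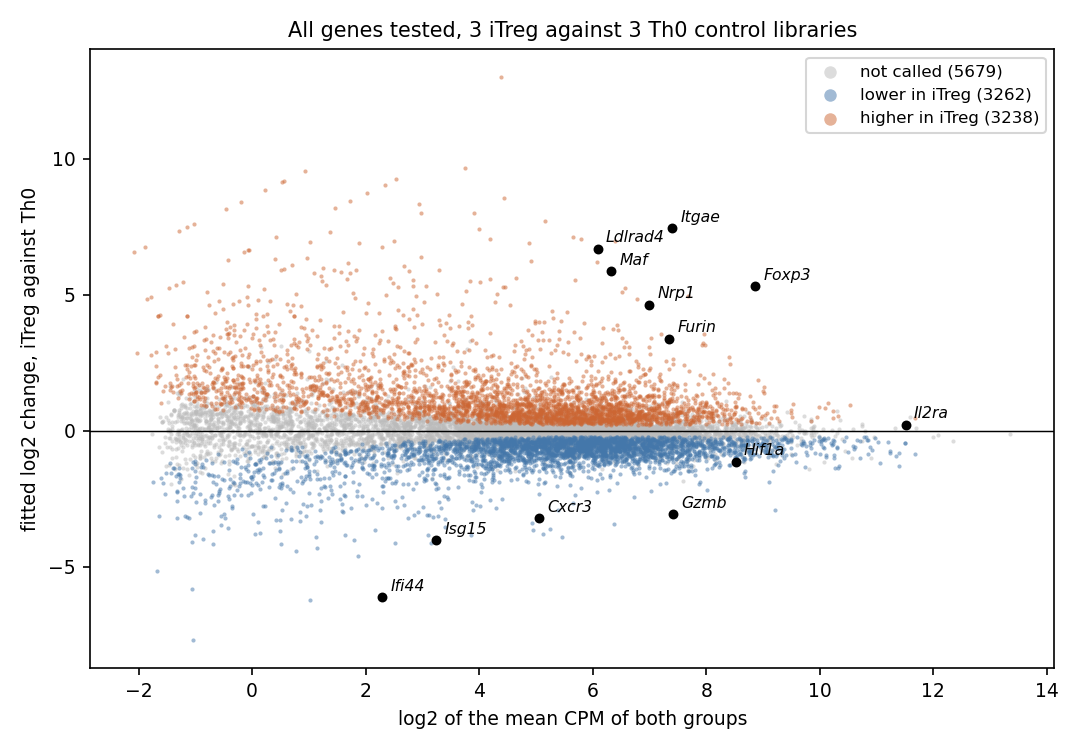
Fitted log2 change of iTreg against Th0 (vertical axis, positive is higher in iTreg) against the log2 of the mean CPM of both groups (horizontal axis) for the 12179 genes tested in the 6 control libraries. Orange points are the 3238 genes called higher, blue points the 3262 called lower and grey points the 5679 not called, and black points are named genes; Foxp3 and Itgae lie far above the line, and Ifi44, Isg15 and Cxcr3 lie below it.

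Most genes of the regulatory T cell signature rose. Of 28 tested members of a list of 30, 16 were called higher, 14 of them at least 2-fold, and 1 lower, with a median log2 change of 1.09 against 0.003 for all genes. Foxp3, the lineage factor (chromosome X, 7579676 to 7595243), had 15.9, 23.9 and 23.0 CPM in Th0 and 849.5, 912 and 979 CPM in iTreg. All 3 iTreg libraries lay far above all 3 Th0 libraries and within a narrow range (20.9 ± 4.37 CPM in Th0 and 913 ± 64.7 CPM in iTreg, SD, n = 3; log2 change 5.33, SE 0.20, adjusted p = 0.000251), and iTreg 177 was not apart for this gene. Both Ikaros family factors of the list, which regulatory T cells are known to use, rose as well. Ikzf2, which encodes Helios (chromosome 1, 69531214 to 69685960), had 6.75, 6.15 and 5.88 CPM in Th0 and 43.8, 46.6 and 117 CPM in iTreg (log2 change 3.35, SE 0.44, adjusted p = 0.00301). Ikzf4, which encodes Eos (chromosome 10, 128630843 to 128645991), had 23.9, 20.9 and 24.7 CPM in Th0 and 107, 115 and 118 CPM in iTreg (log2 change 2.18, SE 0.10, adjusted p = 0.000354), with no overlap between the groups for either gene and a wide spread only for Ikzf2.

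Surface proteins of regulatory T cells gave some of the largest changes in the list. Itgae, the alpha chain CD103 of the integrin that binds E-cadherin (chromosome 11, 73090583 to 73147446), had 2.20, 1.89 and 1.22 CPM in Th0 and 54.3, 75.5 and 874 CPM in iTreg. Every iTreg library exceeded every Th0 library, with iTreg 177 far above the other two iTreg libraries (log2 change 7.45, SE 1.42, adjusted p = 0.00847; log2 change 5.10 without iTreg 177). Nrp1, the semaphorin receptor neuropilin 1 (chromosome 8, 128359073 to 128505462), had 7.85, 7.97 and 11.5 CPM in Th0 and 172, 221 and 342 CPM in iTreg (log2 change 4.64, SE 0.33, adjusted p = 0.00069). Nt5e, the ectoenzyme CD73 (chromosome 9, 88327609 to 88372089), had 35.0, 35.5 and 37.4 CPM in Th0 and 335, 379 and 667 CPM in iTreg (log2 change 3.56, SE 0.29, adjusted p = 0.000906). Entpd1, the ectoenzyme CD39 that acts before it in making adenosine, had 8.42, 10.6 and 10.2 CPM in Th0 and 61.0, 56.2 and 119 CPM in iTreg (log2 change 2.90, SE 0.33, adjusted p = 0.0022). Both enzymes were higher in all 3 iTreg libraries and highest in iTreg 177. Gpr15, a homing receptor for the large intestine, had 0.203, 0.222 and 0.382 CPM in Th0 and 7.04, 7.30 and 27.7 CPM in iTreg (log2 change 5.56, SE 0.78, adjusted p = 0.00371).

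Several well-known regulatory T cell genes changed little or were not called. Ctla4, the inhibitory receptor that competes with CD28 (chromosome 1, 60887000 to 60915832), had 343, 276 and 271 CPM in Th0 and 447, 392 and 469 CPM in iTreg. The groups did not overlap but the change was small (log2 change 0.44, SE 0.13, adjusted p = 0.0274), and the call was lost without iTreg 154 (adjusted p = 0.0597) or without Th0 176 or 177 (0.105 for both). Il2ra, the high-affinity IL-2 receptor chain CD25 (chromosome 2, 11642792 to 11693191), had 2485, 2641 and 2604 CPM in Th0 and 3838, 3989 and 1954 CPM in iTreg. It was higher in iTreg 154 and 155 and lower in iTreg 177 than in any Th0 library, and it was not called (log2 change 0.23, SE 0.26, adjusted p = 0.492; log2 change 0.51, adjusted p = 1.56e-06, without iTreg 177). Lrrc32, the docking protein GARP for latent TGF-beta (chromosome 7, 98494222 to 98501831), had 183, 205 and 207 CPM in Th0 and 567, 596 and 198 CPM in iTreg, with the same split between 177 and the other two iTreg libraries (log2 change 1.08, SE 0.40, adjusted p = 0.0592; 1.46, adjusted p = 1.33e-10, without iTreg 177). Gpr83 had 30.4, 35.1 and 33.7 CPM in Th0 and 41.2, 44.9 and 15.2 CPM in iTreg and was not called (log2 change -0.09, SE 0.38, adjusted p = 0.86), and its difference turned positive without iTreg 177 (0.29, adjusted p = 0.00482). Folr4, a folate receptor family member also known as Izumo1r, was the 1 member called lower (-0.74). Il10 and Klrg1 did not pass the filter on low counts. Without iTreg 177, 21 members were called higher and 2 lower. Higher calls numbered 10 without Th0 176 or 177.

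**Figure D2:**
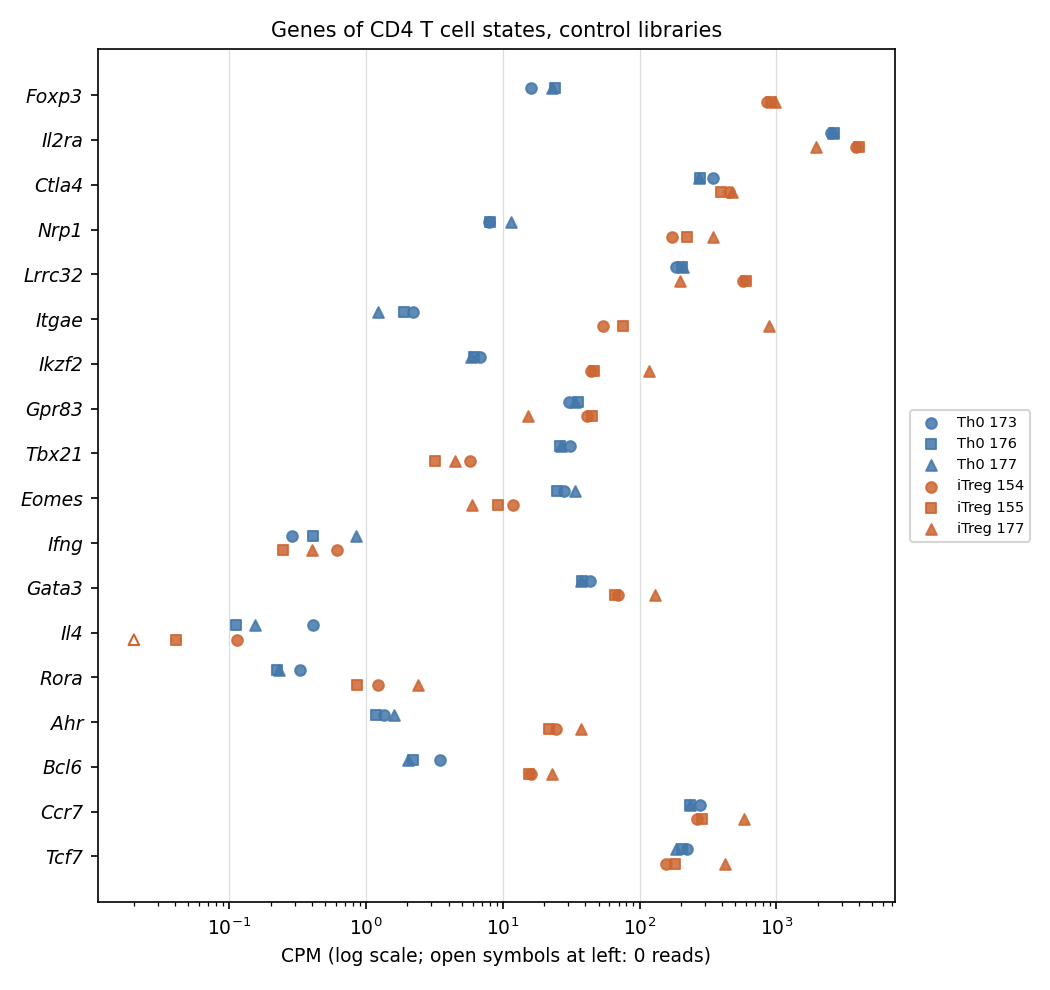
CPM (horizontal log axis) of 18 T cell state genes in each of the 6 control libraries, blue for the Th0 and orange for the iTreg libraries, with a symbol for each library number and open symbols at the left edge for 0 reads. Foxp3, Nrp1, Itgae and Ikzf2 lie to the right in all 3 iTreg libraries, Tbx21 and Eomes lie to the left, Il2ra and Tcf7 have iTreg libraries on both sides of the Th0 libraries, and Lrrc32 has iTreg 177 among them.

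Many components of TGF-beta signalling rose. Of 19 tested ligands, receptors and SMADs, 12 were called higher and 2 lower, with a median log2 change of 1.06. Among ligands, Tgfb1 (chromosome 7, 25687002 to 25705077) had 221, 239.6 and 222 CPM in Th0 and 262, 263 and 169 CPM in iTreg and was not called (log2 change -0.09, SE 0.18, adjusted p = 0.687), with iTreg 177 below and the other two above the Th0 libraries. Tgfb3 had 0.529, 0.371 and 0.687 CPM in Th0 and 5.22, 4.53 and 3.95 CPM in iTreg, a low level with no overlap between the groups (log2 change 2.99, SE 0.27, adjusted p = 0.00119). Furin, the protease that cleaves the TGF-beta precursor (chromosome 7, 80388585 to 80405436), had 28.1, 24.95 and 26.4 CPM in Th0 and 244, 285 and 370.3 CPM in iTreg. Its rise was similar in the 3 libraries (log2 change 3.39, SE 0.18, adjusted p = 0.000422), and its promoter is shown because Furin had 1 of the smallest p-values of this list. The window runs from 250 bases before to 50 after a RefSeq start (GRCm38.p6, minus strand, chr7:80402763-80403062), written 5′ to 3′ in the direction of the gene, with the SMAD element CAGACA in capitals.
Furin promoter: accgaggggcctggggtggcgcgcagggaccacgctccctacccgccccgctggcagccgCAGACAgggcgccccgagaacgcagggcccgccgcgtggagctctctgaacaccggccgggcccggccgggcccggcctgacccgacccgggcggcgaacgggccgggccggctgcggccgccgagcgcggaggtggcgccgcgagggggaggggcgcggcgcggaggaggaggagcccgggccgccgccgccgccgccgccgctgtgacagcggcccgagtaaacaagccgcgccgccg

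Receptors for TGF-beta and for its relative BMP rose as well, and the co-receptor fell. Tgfbr1, the type I receptor kinase (chromosome 4, 47353222 to 47414931), had 59.0, 65.8 and 71.7 CPM in Th0 and 132, 151 and 159 CPM in iTreg (log2 change 1.06, SE 0.11, adjusted p = 0.00183). Tgfbr2, the type II receptor (chromosome 9, 116087698 to 116175363), had 78.6, 82.0 and 80.3 CPM in Th0 and 159.7, 176.4 and 417 CPM in iTreg, and every iTreg library was above every Th0 library (log2 change 1.53, SE 0.38, adjusted p = 0.0181). Its call was lost without any 1 of the Th0 libraries (adjusted p = 0.0644 to 0.067). Bmpr2, the type II receptor of BMPs, had 2.89, 2.08 and 2.44 CPM in Th0 and 20.3, 23.7 and 36.8 CPM in iTreg (log2 change 3.33, SE 0.28, adjusted p = 0.000981). Tgfbr3, the co-receptor betaglycan, went the other way, with 58.7, 50.5 and 49.5 CPM in Th0 and 19.1, 17.7 and 32.8 CPM in iTreg (log2 change -1.30, SE 0.25, adjusted p = 0.00855). Of the SMADs, Smad3 (chromosome 9, 63646767 to 63757994) had 48.9, 47.2 and 48.8 CPM in Th0 and 49.7, 51.8 and 62.5 CPM in iTreg and was not called (log2 change 0.06, SE 0.11, adjusted p = 0.629), and Smad2 was called lower by a small amount (-0.28). Smad5, which carries BMP signals, had 30.3, 30.6 and 29.1 CPM in Th0 and 93.3, 98.1 and 118 CPM in iTreg (log2 change 1.67, SE 0.11, adjusted p = 0.000613), and Smad4, the partner of all of them, was called higher (0.68).

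Inhibitors that TGF-beta induces against itself rose together. Of 11 tested feedback inhibitors, 9 were called higher, each at least 2-fold, and 2 were not called, with a median log2 change of 1.75, the highest of the lists with at least 8 tested genes. Smad7, which blocks the receptor and recruits ubiquitin ligases (chromosome 18, 75367529 to 75395935), had 16.2, 13.2 and 16.2 CPM in Th0 and 59.9, 72.6 and 177.1 CPM in iTreg (log2 change 2.65, SE 0.44, adjusted p = 0.00577). Skil, which encodes the SMAD corepressor SnoN (chromosome 3, 31095058 to 31122577), had 41.0, 43.0 and 48.8 CPM in Th0 and 310.2, 360.3 and 679.8 CPM in iTreg (log2 change 3.23, SE 0.33, adjusted p = 0.00156). Ldlrad4, a membrane protein that sequesters SMADs (chromosome 18, 67933257 to 68255549), had 0.895, 1.15 and 1.53 CPM in Th0 and 65.3, 92.2 and 247 CPM in iTreg (log2 change 6.70, SE 0.67, adjusted p = 0.00152). Its relative Pmepa1 had 18.8, 20.9 and 24.1 CPM in Th0 and 116, 137 and 188 CPM in iTreg (log2 change 2.68, SE 0.21, adjusted p = 0.000819). The ubiquitin ligase Smurf2 had 34.2, 36.1 and 36.3 CPM in Th0 and 95.3, 113 and 179 CPM in iTreg (log2 change 1.75, SE 0.24, adjusted p = 0.0035). For all 5 genes the 3 iTreg libraries were above the 3 Th0 libraries, with iTreg 177 the highest. Tgif2 (-0.36) and Ppm1a (0.17) were not called, and Smad6 did not pass the filter.

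Further genes known to be induced by TGF-beta in various cells did not move as 1 group. Of 15 tested, 9 were called higher and 3 lower, with a median log2 change of 0.57. Sox4, a transcription factor, had 0.773, 0.890 and 1.07 CPM in Th0 and 21.0, 35.4 and 18.7 CPM in iTreg (log2 change 4.66, SE 0.33, adjusted p = 0.000675). Ahr, the aryl hydrocarbon receptor (chromosome 12, 35497974 to 35535038), had 1.34, 1.19 and 1.604 CPM in Th0 and 24.2, 21.7 and 37.2 CPM in iTreg (log2 change 4.21, SE 0.27, adjusted p = 0.000613). Id1, an inhibitor of E proteins, had 0.203, 0.0741 and 0.115 CPM in Th0 and 4.57, 4.20 and 1.77 CPM in iTreg (log2 change 4.60, SE 0.55, adjusted p = 0.00245). Dab2, an endocytic adaptor, had 0.0407, 0.0741 and 0.115 CPM in Th0 and 15.6, 12.6 and 0.846 CPM in iTreg (log2 change 6.77, SE 1.34, adjusted p = 0.0093), so it was high in iTreg 154 and 155 and near 1 CPM in iTreg 177. Id2, a relative of Id1, had 86.0, 93.7 and 93.8 CPM in Th0 and 39.1, 35.7 and 16.2 CPM in iTreg (log2 change -1.70, SE 0.32, adjusted p = 0.00792). Tgm2, transglutaminase 2, had 65.3, 58.9 and 69.6 CPM in Th0 and 10.2, 4.20 and 0.645 CPM in iTreg (log2 change -3.79, SE 0.78, adjusted p = 0.0106), with iTreg 177 the lowest library. Nedd9, an adhesion scaffold, fell by a smaller amount (log2 change -0.68, SE 0.10, adjusted p = 0.00441). Tgfbi, Col1a1, Fn1 and other matrix genes of the list did not pass the filter in these T cells.

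Of 21 tested IL-2 receptor and STAT5 genes, 6 were called higher and 5 lower, with a median log2 change of 0.08. These counts lay near the shares over all genes (26.6% higher and 26.8% lower). Pim2, a kinase that cytokines induce (chromosome X, 7878262 to 7883432), had 232, 212 and 194 CPM in Th0 and 61.3, 51.0 and 35.3 CPM in iTreg (log2 change -2.22, SE 0.21, adjusted p = 0.00136). Pim1, its relative, rose (log2 change 0.57, SE 0.11, adjusted p = 0.00862), as did the cytokine signalling inhibitor Socs3 (54.5, 47.4 and 47.0 CPM in Th0 and 139, 143 and 197 CPM in iTreg; log2 change 1.57, SE 0.16, adjusted p = 0.00165). Prdm1, which encodes Blimp-1, had 5.45, 4.26 and 4.81 CPM in Th0 and 13.2, 8.04 and 11.2 CPM in iTreg (log2 change 1.05, SE 0.22, adjusted p = 0.0107), and this call was lost without Th0 176 (adjusted p = 0.0513). The cytokine gene Lif had 309, 262 and 319 CPM in Th0 and 142, 104 and 17.0 CPM in iTreg and was not called (log2 change -1.87, SE 0.68, adjusted p = 0.0577), although it was lower in every iTreg library (adjusted p = 0.00283 without iTreg 177 and 0.0477 without iTreg 154). Il2 itself (chromosome 3, 37120523 to 37125959) had at most 0.917 CPM in any library and did not pass the filter. Without iTreg 177, 14 members of this list were called higher and 6 lower. Higher calls numbered 2 in the fit of 12 libraries or without Th0 176 and 3 without Th0 173 or 177, and lower calls numbered 2 scaled by library size alone and 1 in the fit of 12 libraries or without iTreg 155 or without any 1 of the Th0 libraries. The median turned sign without iTreg 154 (-0.08) and without iTreg 155 (-0.03).

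The largest rises included genes with little known use in T cells. By rule these were the 12 called genes with the largest fitted change whose groups did not overlap and whose iTreg mean reached 10 CPM. Abcc8, a sulfonylurea receptor (chromosome 7, 46104523 to 46180033), had 0, 0 and 0 CPM in Th0 and 13.8, 28.1 and 83.1 CPM in iTreg, so that no read fell in any Th0 library; against a floor of 3 reads per library it was at least 359-fold higher in iTreg, and without both libraries numbered 177 its adjusted p was 0.0557. Hepacam2, an adhesion molecule (chromosome 6, 3457089 to 3498297), had 0, 0 and 0.0382 CPM in Th0 and 10.4, 12.2 and 12.4 CPM in iTreg, with 1 read in all Th0 libraries together, and a ratio of summed CPM of 903 with a 95% counting interval of 162 to 35708. Adamtsl2, Kirrel and Peli2 also rested on 1 to 3 Th0 reads. Nlrp6, a sensor of the inflammasome family (chromosome 7, 140920902 to 140929192), had 0.244, 0.408 and 0.267 CPM in Th0 and 101, 87.3 and 24.9 CPM in iTreg (log2 change 7.71, SE 0.73, adjusted p = 0.00135), lowest among the iTreg libraries in 177. Apol9b, an apolipoprotein L family member (chromosome 15, 77729121 to 77736381), had 0.529, 0.482 and 0.955 CPM in Th0 and 77.8, 89.2 and 134 CPM in iTreg (log2 change 7.13, SE 0.36, adjusted p = 0.000407), and its near copy Apol9a, which could share reads with it, was also called higher. Plekhd1 (8.54), the fractalkine receptor Cx3cr1 (8.01), Sec1 (8.003), Itgae and Pyroxd2 (7.42) completed the 12.

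The largest falls held 4 interferon-stimulated genes and several genes of amino acid metabolism. Mx1, Isg15, Ifit1 and Usp18 belong to the first kind, and Asns and Bcat1 to the second. Tbkbp1, an adaptor of the kinase TBK1 (chromosome 11, 97136171 to 97151495), had 17.9, 16.8 and 15.7 CPM in Th0 and 1.68, 0.816 and 0.604 CPM in iTreg (log2 change -4.13, SE 0.36, adjusted p = 0.0011). Ms4a4c, a membrane protein of the MS4A family, fell (log2 change -3.91, SE 0.34, adjusted p = 0.00113), as did the GTPase Gimap7 (log2 change -3.63, SE 0.26, adjusted p = 0.000696), and both belong to families of similar genes. Nrn1, neuritin, which anergic and regulatory T cells are known to express (chromosome 13, 36725625 to 36734477), had 174.1, 133 and 145 CPM in Th0 and 20.8, 16.6 and 8.34 CPM in iTreg (log2 change -3.42, SE 0.34, adjusted p = 0.00155). Dapl1 (log2 change -3.53, SE 0.40, adjusted p = 0.00217) and Tgm2 completed the 12. In each of these genes every iTreg library was below every Th0 library.

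**Figure D3:**
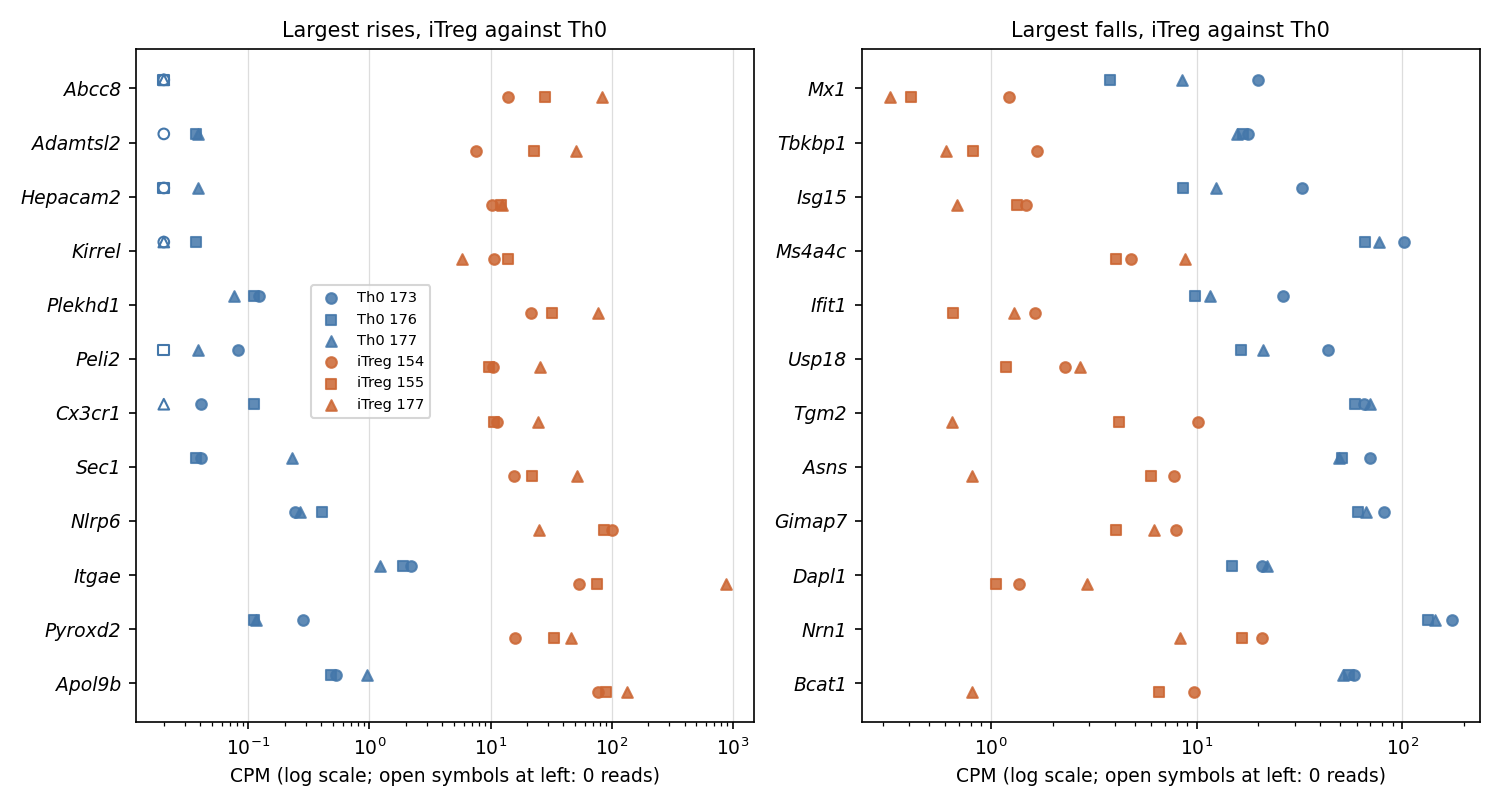
CPM (horizontal log axes) in each of the 6 control libraries for the 12 largest rises (left panel) and the 12 largest falls (right panel), blue for Th0 and orange for iTreg, with a symbol for each library number and open symbols at the left edge for 0 reads. The groups are apart for each gene, which the choice of genes required; Itgae and Abcc8 are highest and Tgm2, Asns and Bcat1 lowest in iTreg 177.

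T helper 1 genes went down more often than up. Of 21 tested, 10 were called lower and 5 higher, with a median log2 change of -0.45. Tbx21, which encodes the lineage factor T-bet (chromosome 11, 97098071 to 97115331), had 30.8, 26.3 and 26.6 CPM in Th0 and 5.71, 3.18 and 4.43 CPM in iTreg (log2 change -2.76, SE 0.22, adjusted p = 0.00088). Eomes, its relative used in memory and killer cells (chromosome 9, 118478212 to 118486132), had 27.9, 24.7 and 33.5 CPM in Th0 and 11.9, 9.18 and 5.92 CPM in iTreg (log2 change -1.78, SE 0.26, adjusted p = 0.00428). Cxcr3, a chemokine receptor that T-bet induces, had 59.3, 57.9 and 62.4 CPM in Th0 and 3.08, 2.57 and 15.2 CPM in iTreg (log2 change -3.22, SE 0.69, adjusted p = 0.0118). Il12rb2, the IL-12 receptor chain, had 100.5, 75.9 and 82.4 CPM in Th0 and 23.5, 14.1 and 6.85 CPM in iTreg (log2 change -2.65, SE 0.43, adjusted p = 0.00537). Each of these 4 was lower in every iTreg library, with Cxcr3 least low in 177 and Il12rb2 lowest there. Other parts of the same list rose. Il18r1, the IL-18 receptor chain, had 76.8, 102 and 118 CPM in Th0 and 535, 569.8 and 645 CPM in iTreg (log2 change 2.45, SE 0.18, adjusted p = 0.000705). The interferon gamma receptor chain Ifngr2 (12.4, 9.53 and 11.4 CPM in Th0 and 43.0, 43.9 and 53.9 CPM in iTreg; log2 change 1.97, SE 0.14, adjusted p = 0.000696) and the kinase Txk (log2 change 1.77, SE 0.11, adjusted p = 0.000536) were higher. So were Ifngr1 (0.64) and the chemokine Xcl1 (3.99). Ifng, interferon gamma itself, had 0.285, 0.408 and 0.840 CPM in Th0 and 0.609, 0.245 and 0.403 CPM in iTreg, and no difference was detected at this level (log2 change -0.39, SE 0.52, adjusted p = 0.544); its sign turned without Th0 177 (0.15). Lower calls numbered 5 in the fit of 12 libraries.

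Among T helper 2 genes 7 of 11 tested were called higher and 4 were not called, with a median log2 change of 0.79. Maf, a transcription factor also used in regulatory and T helper 17 cells (chromosome 8, 115682942 to 115707794), had 2.24, 2.52 and 2.75 CPM in Th0 and 76.8, 91.9 and 304 CPM in iTreg (log2 change 5.86, SE 0.67, adjusted p = 0.0022). Gata3, the T helper 2 lineage factor (chromosome 2, 9857078 to 9890034), had 42.9, 37.9 and 37.4 CPM in Th0 and 69.2, 66.4 and 129 CPM in iTreg (log2 change 1.05, SE 0.27, adjusted p = 0.0206), with all iTreg libraries above all Th0 libraries, and its call was lost without any 1 of the Th0 libraries (adjusted p = 0.059 to 0.077). Without iTreg 177, 2 members were called lower. Chemokine receptors of skin and lung homing rose: Ccr8 had 7.28, 9.64 and 10.7 CPM in Th0 and 35.3, 34.7 and 39.4 CPM in iTreg (log2 change 1.87, SE 0.16, adjusted p = 0.00107), and Ccr4 rose by less (log2 change 1.19, SE 0.19, adjusted p = 0.00487). Ecm1, a secreted protein of T helper 2 cells, rose as well (log2 change 0.79, SE 0.12, adjusted p = 0.00458). Higher calls numbered 4 in the fit of 12 libraries or without any 1 of the Th0 libraries. The cytokine genes Il4, Il5 and Il13 did not pass the filter on low counts, and Il4 had 0.407, 0.111 and 0.153 CPM in Th0 and 0.114, 0.0408 and 0 CPM in iTreg.

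Of 8 tested T helper 17 and Th9 genes 6 were called higher and 1, Batf (-0.65), lower, with a median log2 change of 1.54. The members that rose were receptor and regulator genes, among them both chains of the IL-6 receptor. Il6ra had 58.1, 55.1 and 60.5 CPM in Th0 and 239, 276 and 478 CPM in iTreg (log2 change 2.40, SE 0.28, adjusted p = 0.00221), and its partner Il6st rose too (log2 change 2.34, SE 0.28, adjusted p = 0.00252). The nuclear receptor Rora had 0.325, 0.222 and 0.229 CPM in Th0 and 1.22, 0.857 and 2.38 CPM in iTreg (log2 change 2.39, SE 0.48, adjusted p = 0.00997). The signal transducer Stat3 was also higher (log2 change 0.75, SE 0.11, adjusted p = 0.00418). Il17a, Il17f, Il22 and Il9 did not pass the filter. Follicular helper genes split. Bcl6, the lineage factor (chromosome 16, 23965052 to 23988852), had 3.46, 2.19 and 2.02 CPM in Th0 and 16.0, 15.5 and 22.9 CPM in iTreg (log2 change 2.71, SE 0.27, adjusted p = 0.00156). In contrast, Pou2af1 (log2 change -3.09, SE 0.30, adjusted p = 0.00142), the inhibitory receptor Btla (log2 change -0.90, SE 0.10, adjusted p = 0.00213) and Cd200 (log2 change -2.06, SE 0.50, adjusted p = 0.0172) fell. The call of Cd200 was lost without Th0 173 or 176 (adjusted p = 0.0563 and 0.0588). Of 10 tested Tfh genes 2 were called higher and 4 lower, with a median log2 change of -0.58, and 7 were called lower without iTreg 177. Lower calls numbered 2 without Th0 173 or 176.

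Cytotoxic genes were split in the same list. Of 13 tested, 5 were called higher and 4 lower, with a median log2 change of 0.35 that turned to -0.08 without iTreg 177. Prf1, the pore protein perforin, had 1.38, 1.74 and 1.76 CPM in Th0 and 15.9, 17.5 and 17.6 CPM in iTreg (log2 change 3.27, SE 0.15, adjusted p = 0.000407). Ctsw, a protease of killer cells, had 42.1, 45.9 and 50.9 CPM in Th0 and 325, 399.6 and 599.5 CPM in iTreg (log2 change 3.14, SE 0.25, adjusted p = 0.000868). The lectin receptor Klrd1 had 1.10, 1.08 and 0.840 CPM in Th0 and 20.8, 15.6 and 19.2 CPM in iTreg (log2 change 4.09, SE 0.19, adjusted p = 0.000407). Tnfsf10, the death ligand TRAIL, rose as well (log2 change 1.68, SE 0.10, adjusted p = 0.000472). Gzmb, granzyme B, had 395, 249.7 and 259.7 CPM in Th0 and 72.6, 41.1 and 3.42 CPM in iTreg (log2 change -3.06, SE 0.94, adjusted p = 0.0345), lower in every iTreg library and lowest in iTreg 177; its call was lost without iTreg 155 or any 1 of the Th0 libraries (adjusted p = 0.0779 to 0.0907). Nkg7, Serpinb9 and Lamp1 were the other members called lower (-0.96, -0.45 and -0.42). Lower calls numbered 1 in the fit of 12 libraries and 2 without iTreg 155 or without Th0 176.

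Genes of naive and resting T cells depended on the library. Of 19 tested, 8 were called higher and 3 lower, with a median log2 change of 0.62 that was 0.14 without iTreg 177, where 8 were called higher and 6 lower. Higher calls numbered 4 in the fit of 12 libraries or without any 1 of the Th0 libraries. Klf2, which keeps T cells quiescent and drives homing receptors (chromosome 8, 72319033 to 72321656), had 77.6, 70.7 and 62.3 CPM in Th0 and 261, 270.0 and 501 CPM in iTreg (log2 change 2.18, SE 0.28, adjusted p = 0.00301). Its relative Klf3 had 26.8, 21.8 and 21.7 CPM in Th0 and 79.6, 82.0 and 145 CPM in iTreg (log2 change 2.01, SE 0.26, adjusted p = 0.00308). Foxo1, the factor upstream of Klf2, had 123, 122 and 131 CPM in Th0 and 242, 254 and 494 CPM in iTreg (log2 change 1.28, SE 0.29, adjusted p = 0.0135). Both were higher in every iTreg library. S1pr1, the receptor for exit from lymph nodes, had 94.7, 95.7 and 97.4 CPM in Th0 and 235, 239 and 725 CPM in iTreg (log2 change 1.95, SE 0.47, adjusted p = 0.0166); the calls of Foxo1 and S1pr1 were lost without any 1 of the Th0 libraries (adjusted p = 0.0511 to 0.0656). Ccr7 had 274, 235 and 234 CPM in Th0 and 262, 287 and 583 CPM in iTreg (log2 change 0.50, SE 0.31, adjusted p = 0.22). Tcf7, which encodes TCF-1, had 220.3, 203 and 185 CPM in Th0 and 157, 180.0 and 419 CPM in iTreg (log2 change 0.20, SE 0.38, adjusted p = 0.67). Ccr7 and Tcf7 were not called, and for Tcf7 iTreg 154 and 155 were below and iTreg 177 above the Th0 libraries (log2 change -0.36, adjusted p = 0.00333, without iTreg 177). Satb1, a chromatin organiser, had 365, 311 and 307 CPM in Th0 and 113, 128 and 309 CPM in iTreg, low in 154 and 155 and at the Th0 level in 177 (log2 change -0.95, SE 0.39, adjusted p = 0.0822; -1.54 and 1.76e-07 without iTreg 177). Cd44, a marker of activated and memory cells (chromosome 2, 102811141 to 102901665), had 84.7, 82.1 and 89.7 CPM in Th0 and 39.6, 39.6 and 46.0 CPM in iTreg (log2 change -1.15, SE 0.09, adjusted p = 0.000847).

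Homing and costimulation receptors changed one by one. Of 24 tested chemokine receptors and integrins, 12 were called higher and 3 lower, with a median log2 change of 0.59. Cxcr4, the receptor for CXCL12, had 5.61, 4.52 and 3.63 CPM in Th0 and 42.1, 30.5 and 74.2 CPM in iTreg (log2 change 3.30, SE 0.38, adjusted p = 0.00224). The integrin chain Itga6 rose (log2 change 0.92, SE 0.09, adjusted p = 0.00128), whereas Itgal, the LFA-1 chain, fell (log2 change -0.89, SE 0.08, adjusted p = 0.00117). Of 19 tested costimulatory and inhibitory receptors, 6 were called higher and 4 lower, with a median of 0.03. Over all genes the shares were 26.6% higher and 26.8% lower. The inhibitory receptor Cd200r1 had 1.95, 2.22 and 2.02 CPM in Th0 and 6.55, 7.99 and 26.4 CPM in iTreg (log2 change 2.61, SE 0.59, adjusted p = 0.0135) while its ligand Cd200 fell. Tnfrsf1b, the TNF receptor 2 of regulatory T cells, rose by a small amount (log2 change 0.48, SE 0.10, adjusted p = 0.0112). The calls of Cd200r1 and Tnfrsf1b were lost without Th0 173 (adjusted p = 0.0537 and 0.0532) or 176 (0.0561 and 0.0536), and that of Cd200r1 without Th0 177 (0.0549). Without iTreg 177, 7 of these receptors were called higher and 7 lower, with a median of -0.14. Over all genes that fit called 4295 higher and 4277 lower of 12333. Higher calls numbered 1 without any 1 of the Th0 libraries, and lower calls numbered 1 without Th0 173 or 176 and 2 without Th0 177. The median turned sign without iTreg 154 (-0.17) and without Th0 173 (-0.10).

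Transcription factors that T cell receptor signalling induces also went both ways, with 8 of 26 called higher, 10 lower and a median log2 change of -0.34. The shares over all genes were 26.6% higher and 26.8% lower. Fosb, a partner of Jun in AP-1, had 3.74, 3.48 and 5.003 CPM in Th0 and 0.190, 0.122 and 0.564 CPM in iTreg (log2 change -3.89, SE 0.50, adjusted p = 0.00291). Batf3 had 2.20, 1.56 and 2.06 CPM in Th0 and 0.114, 0.286 and 0.0403 CPM in iTreg (log2 change -3.80, SE 0.51, adjusted p = 0.00325). Jun had 28.7, 29.8 and 27.3 CPM in Th0 and 78.6, 72.4 and 95.8 CPM in iTreg (log2 change 1.41, SE 0.13, adjusted p = 0.00115). Rel, an NF-kappaB subunit, had 18.8, 16.0 and 19.2 CPM in Th0 and 31.9, 30.1 and 37.6 CPM in iTreg (log2 change 0.77, SE 0.12, adjusted p = 0.00517). Myc (chromosome 15, 61985391 to 61990374) had 269, 263 and 258 CPM in Th0 and 284, 267 and 121 CPM in iTreg and was not called (log2 change -0.35, SE 0.31, adjusted p = 0.367), with the low value in iTreg 177 alone. Higher calls numbered 5 in the fit of 12 libraries or without iTreg 154 or without iTreg 155, 4 without Th0 173, 2 without Th0 176 and 3 without Th0 177, and lower calls numbered 4 without iTreg 155 or without Th0 173 or 177 and 5 without Th0 176.

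Interferon-stimulated genes were lower in iTreg as a list. Of 26 tested, 20 were called lower, 19 of them at least 2-fold, and 6 were not called, with a median log2 change of -2.18. Isg15, a ubiquitin-like modifier (chromosome 4, 156199424 to 156200818), had 32.5, 8.56 and 12.4 CPM in Th0 and 1.49, 1.35 and 0.685 CPM in iTreg (log2 change -4.03, SE 0.62, adjusted p = 0.00465). Ifit1, which binds foreign RNA (chromosome 19, 34640871 to 34650009), had 26.4, 9.82 and 11.7 CPM in Th0 and 1.64, 0.653 and 1.29 CPM in iTreg (log2 change -3.84, SE 0.52, adjusted p = 0.00345). Usp18, which removes Isg15 and dampens the receptor (chromosome 6, 121245906 to 121270916), had 43.4, 16.5 and 21.1 CPM in Th0 and 2.28, 1.18 and 2.70 CPM in iTreg (log2 change -3.82, SE 0.49, adjusted p = 0.00284). Each was lower in all iTreg libraries, and each had its highest value in Th0 173. Mx1, an antiviral GTPase (chromosome 16, 97447035 to 97462907), had 20.0, 3.78 and 8.48 CPM in Th0 and 1.22, 0.408 and 0.322 CPM in iTreg (log2 change -4.13, SE 0.80, adjusted p = 0.0087; adjusted p = 0.0732 without iTreg 177). Ifi44 had 19.6, 3.003 and 6.38 CPM in Th0 and 0.228, 0.163 and 0.0403 CPM in iTreg (log2 change -6.11, SE 0.97, adjusted p = 0.0052; 0.0624 without iTreg 177). Irf7, the factor that amplifies the response, had 84.8, 34.6 and 46.8 CPM in Th0 and 13.98, 9.38 and 24.9 CPM in iTreg (log2 change -1.89, SE 0.47, adjusted p = 0.0177), a call lost without Th0 173 (adjusted p = 0.0528), and the RNA sensor Ifih1 fell too (log2 change -1.89, SE 0.26, adjusted p = 0.00356). Bst2, the membrane protein tetherin, had 133, 98.1 and 99.3 CPM in Th0 and 38.2, 22.4 and 13.4 CPM in iTreg (log2 change -2.27, SE 0.38, adjusted p = 0.00592).

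The signal transducers of interferon did not all fall with their targets. Stat2 (0.02) and Irf9 (0.64) were not called. Th0 173 lay above the other two Th0 libraries across the list (mean log2 difference from the Th0 mean of 0.62, against -0.50 in 176 and -0.13 in 177), and the 3 iTreg libraries lay at -1.48, -1.90 and -1.61. Without iTreg 177, 14 members were called lower and 1, Irf9, higher (0.35). Lower calls numbered 12 without Th0 173 and 5 without both libraries numbered 177. Without both libraries numbered 177 the adjusted p of Isg15, Ifit1, Usp18 and Ifih1 were 0.0906, 0.059, 0.0545 and 0.0633.

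Promoters are shown for Isg15 and Ifit1 because they are among the largest falls, and for Apol9b because this gene went the opposite way and also holds the interferon response element. Each runs 5′ to 3′ in the direction of its gene over 300 bases (RefSeq starts, GRCm38.p6; Isg15 minus strand, chr4:156200769-156201068; Ifit1 plus strand, chr19:34640639-34640938; Apol9b plus strand, chr15:77728822-77729121). Capitals mark matches of the interferon response element, here read as 2 GAAA blocks with any 2 bases between them, or of its reverse complement, of which Isg15 held 3 that overlap each other, Ifit1 held 2, and Apol9b held 2 that overlap.
Isg15 promoter: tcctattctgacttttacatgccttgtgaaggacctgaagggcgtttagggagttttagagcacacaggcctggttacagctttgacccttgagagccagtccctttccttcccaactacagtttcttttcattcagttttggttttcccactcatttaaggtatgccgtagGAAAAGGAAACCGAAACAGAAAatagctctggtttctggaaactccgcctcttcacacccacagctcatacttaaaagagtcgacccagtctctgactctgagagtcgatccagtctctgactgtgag
Ifit1 promoter: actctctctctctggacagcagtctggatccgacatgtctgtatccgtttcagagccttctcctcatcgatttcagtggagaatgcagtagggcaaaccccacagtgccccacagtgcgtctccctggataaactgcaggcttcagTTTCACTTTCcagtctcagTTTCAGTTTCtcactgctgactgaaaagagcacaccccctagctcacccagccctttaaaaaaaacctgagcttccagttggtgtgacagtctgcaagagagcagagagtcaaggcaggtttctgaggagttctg
Apol9b promoter: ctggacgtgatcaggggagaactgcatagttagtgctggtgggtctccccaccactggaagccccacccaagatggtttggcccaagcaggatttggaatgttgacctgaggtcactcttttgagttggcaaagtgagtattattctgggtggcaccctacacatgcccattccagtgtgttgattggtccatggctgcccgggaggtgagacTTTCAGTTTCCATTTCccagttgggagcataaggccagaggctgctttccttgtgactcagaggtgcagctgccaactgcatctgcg

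Across all genes the motifs were spread as follows, on either strand, over the 9036 of 12179 tested genes with a RefSeq promoter of that length. The interferon response element was in 2.71% of promoters of genes higher by at least 2-fold, 3.07% of genes lower by at least 2-fold and 3.13% of all tested. The SMAD element CAGACA was in 19.2%, 14.2% and 15.9%, and the SMAD palindrome GTCTAGAC in 0.135%, 0.236% and 0.226% (2, 2 and 26 promoters). The amino acid response element TTGCATCA was in 0.542%, 1.77% and 0.679% (8, 15 and 78 promoters), and the E-box CACGTG in 8.94%, 12.2% and 9.98%. Those 15 include the near-identical copies Bcl2a1a, Bcl2a1b and Bcl2a1d. The STAT site TTCNNNGAA was in 7.04%, 6.74% and 7.05%, and the sterol response element in 0.0677%, 0.236% and 0.0435% (1, 2 and 5 promoters). A match is a description of letters and says nothing of binding.

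Genes of amino acid synthesis and uptake, a set known as targets of the stress factor Atf4, fell. Of 24 tested, 16 were called lower, 14 of them at least 2-fold, and 2 higher, with a median log2 change of -1.21. Asns, asparagine synthetase (chromosome 6, 7675169 to 7693254), had 70.0, 51.1 and 49.5 CPM in Th0 and 7.81, 5.996 and 0.806 CPM in iTreg (log2 change -3.65, SE 0.68, adjusted p = 0.00795). Slc7a5 and Slc3a2 together form the transporter of large neutral amino acids. Slc7a5 had 436, 421 and 398 CPM in Th0 and 129, 111 and 62.3 CPM in iTreg (log2 change -2.17, SE 0.27, adjusted p = 0.00264). Slc3a2 had 245, 221 and 205 CPM in Th0 and 92.3, 91.0 and 82.4 CPM in iTreg (log2 change -1.45, SE 0.10, adjusted p = 0.000613). Pycr1, the last step of proline synthesis, had 4.03, 2.78 and 2.67 CPM in Th0 and 0.571, 0.408 and 0.282 CPM in iTreg (log2 change -3.00, SE 0.33, adjusted p = 0.00195). Shmt2 and Psph of the serine pathway fell (log2 change -1.88, SE 0.36, adjusted p = 0.00838 and log2 change -1.12, SE 0.09, adjusted p = 0.000896). Atf4 itself had 360.1, 336 and 299.8 CPM in Th0 and 148, 127 and 73.3 CPM in iTreg (log2 change -1.63, SE 0.26, adjusted p = 0.00521), and Cebpb, a partner factor, fell (log2 change -1.97, SE 0.18, adjusted p = 0.00122). Bcat1, which starts the breakdown of branched amino acids and was not on the list (chromosome 6, 144993835 to 145076184), had 58.3, 55.4 and 51.3 CPM in Th0 and 9.75, 6.57 and 0.806 CPM in iTreg (log2 change -3.38, SE 0.72, adjusted p = 0.0114). Each gene named here was lower in every iTreg library, and each had its lowest value in iTreg 177. Ddit4 (0.82) and Nupr1 (0.90) were the 2 members called higher. Lower calls numbered 9 in the fit of 12 libraries and 10 without Th0 173 or 176.

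The Pycr1 promoter is shown because Pycr1 was among the largest falls of this list and the window holds the amino acid response element. It is read 5′ to 3′ (RefSeq start, GRCm38.p6, minus strand, chr11:120643699-120643998), with the reverse complement of TTGCATCA in capitals.
Pycr1 promoter: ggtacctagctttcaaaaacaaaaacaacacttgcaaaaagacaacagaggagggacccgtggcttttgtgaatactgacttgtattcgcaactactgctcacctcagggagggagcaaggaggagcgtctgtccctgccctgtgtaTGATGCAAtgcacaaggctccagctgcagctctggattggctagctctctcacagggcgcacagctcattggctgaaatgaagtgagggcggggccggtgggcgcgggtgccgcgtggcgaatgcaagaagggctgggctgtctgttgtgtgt

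Most genes for copying DNA fell. Among 24 cell division genes 13 were called lower, but the median fall (-0.35) was smaller than that of housekeeping genes (-0.46). Their mean log2 difference from Th0 was -0.04, -0.20 and -0.41 in iTreg 154, 155 and 177, against -0.28, -0.38 and -0.84 for housekeeping genes. Of 26 tested replication genes, 21 were called lower, 10 of them at least 2-fold, and 5 were not called (median log2 change -0.92). Gins1, a subunit of the replicative helicase, fell (log2 change -1.36, SE 0.26, adjusted p = 0.00858). Mcm2, another helicase subunit, had 416, 421 and 425 CPM in Th0 and 249, 221 and 72.6 CPM in iTreg (log2 change -1.33, SE 0.43, adjusted p = 0.0396), and its call was lost without iTreg 155 or any 1 of the Th0 libraries (adjusted p = 0.0684 to 0.102). Mcm10 and Rfc3 fell as well (log2 change -0.89, SE 0.20, adjusted p = 0.0141 and log2 change -0.99, SE 0.23, adjusted p = 0.0154), and both calls were lost without Th0 176 (0.0525 and 0.0589) or 177 (0.0505 and 0.0525). Of 24 cell division genes, 13 were called lower and 1, Cenpf (0.37), higher (median -0.35), with Cdc20 (-0.60), Ccnb1 (-0.64), Ccna2 (-0.54) and Plk1 (-0.68) among those that fell; Plk1 was not called without Th0 176 (adjusted p = 0.0517). Mki67, which encodes the proliferation marker Ki-67, had 1063, 1044 and 1169 CPM in Th0 and 1778, 1623 and 1211 CPM in iTreg, above Th0 in every iTreg library but not called (log2 change 0.38, SE 0.15, adjusted p = 0.0746; 0.55 and 2.38e-06 without iTreg 177). The count of replication genes moved with single libraries. Lower calls numbered 0 in the fit of 12 libraries, 12 without iTreg 155, 4 without Th0 173 and 2 without Th0 176 or 177. So did that of cell division genes. Lower calls numbered 8 scaled by library size alone, 0 in the fit of 12 libraries, 6 without iTreg 155, 5 without Th0 173 or 177 and 3 without Th0 176. Without iTreg 177, 16 cell division genes were called lower and 3 higher. In the edgeR fit of 12 libraries 1 gene of each list was lower at an unadjusted p under 0.05.

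Inhibitors of the cell cycle and p53 targets moved both ways, with 8 of 21 called higher, 3 lower and a median log2 change of 0.42 that was 0.07 without iTreg 177. Higher calls numbered 3 without Th0 176 and 4 without Th0 177. Cdkn1b, which encodes the inhibitor p27 (chromosome 6, 134920401 to 134925513), had 78.2, 64.7 and 64.0 CPM in Th0 and 161, 152.6 and 335 CPM in iTreg (log2 change 1.54, SE 0.33, adjusted p = 0.0114), a call lost without Th0 176 or 177 (adjusted p = 0.0535 and 0.0505). Btg2, an antiproliferative gene, had 34.2, 29.9 and 24.3 CPM in Th0 and 131, 131 and 301 CPM in iTreg (log2 change 2.56, SE 0.38, adjusted p = 0.00428), and Cdkn2d rose by less (0.53). Bax (-0.90), Ccng1 (-0.63) and Phlda3 (-1.13) fell. Of 22 apoptosis regulators, 9 were called higher and 8 lower, with a median of 0.02. The near-identical survival genes Bcl2a1a, Bcl2a1b and Bcl2a1d fell (-2.48, -2.16 and -2.50), though their reads could be split between the copies. Higher calls numbered 5 without Th0 173, 2 without Th0 176 and 3 without Th0 177, and lower calls numbered 5 in the fit of 12 libraries. The median turned sign with no filter (-0.00045), without iTreg 154 (-0.08), without iTreg 155 (-0.08) and without Th0 173 (-0.0048).

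Nuclear genes of the respiratory chain fell as a list, most by a modest amount, and on average about as much as housekeeping genes. The mean log2 difference from Th0 was -0.36, -0.35 and -0.81 in iTreg 154, 155 and 177, against -0.28, -0.38 and -0.84 for housekeeping genes. Of 28 tested, 24 were called lower and 4 were not called, with a median log2 change of -0.59. Sdhb, a subunit of complex II, had 198, 214 and 204 CPM in Th0 and 127, 121 and 89.2 CPM in iTreg (log2 change -0.98, SE 0.15, adjusted p = 0.00434), and Atp5a1 of ATP synthase (log2 change -0.79, SE 0.13, adjusted p = 0.00544), Uqcrfs1 (-0.59) and Uqcrc2 (-0.53) of complex III fell too. Lower calls numbered 11 in the fit of 12 libraries or without Th0 177, 14 without Th0 173 and 10 without Th0 176. Housekeeping genes fell too, with 12 of 21 called lower, 9 not called and a median of -0.46, among them Tbp (-0.45), Rplp0 (-0.43), B2m (-0.59) and Vcp (-0.46). Lower calls numbered 5 in the fit of 12 libraries, 7 without Th0 173 and 4 without Th0 176 or 177. The medians of both lists were negative under scaling by library size alone as well.

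Glycolysis and sterol genes were low mainly in iTreg 177. Of 26 glycolysis genes, 5 were called lower and 21 were not called (median log2 change -0.47), and 10 were called lower and 2 higher without iTreg 177. Over all genes the fit without iTreg 177 called 4277 lower and 4295 higher of 12333. The mean log2 difference from Th0 was 0.11 and -0.32 in iTreg 154 and 155 and -1.41 in 177. Hif1a, the oxygen-sensing factor that drives these genes (chromosome 12, 73901375 to 73947530), had 545, 452 and 479.6 CPM in Th0 and 280.2, 238 and 207 CPM in iTreg (log2 change -1.14, SE 0.14, adjusted p = 0.00244), low in all iTreg libraries. Ldha, lactate dehydrogenase, had 1955, 2027 and 1929.5 CPM in Th0 and 1479, 1176 and 528 CPM in iTreg and was not called (log2 change -1.01, SE 0.35, adjusted p = 0.0505; -0.66 and 8.22e-05 without iTreg 177; -1.31 and 0.0306 without iTreg 154). The lactate transporter Slc16a1 fell (log2 change -1.92, SE 0.55, adjusted p = 0.0283), as did Pfkm (-0.44), Gpi1 (-0.51) and Gapdh (-1.29). The calls of Slc16a1, Gpi1 and Pfkm were lost without any 1 of the Th0 libraries (adjusted p = 0.0515 to 0.0901), and those of Slc16a1 and Gpi1 without iTreg 155 (0.0515 and 0.0925). Higher calls numbered 2 scaled by library size alone, and lower calls numbered 9 with DESeq2, 3 scaled by library size alone or in the fit of 12 libraries, 10 without iTreg 154, 2 without iTreg 155 and 1 without any 1 of the Th0 libraries.

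Of 30 sterol and fatty acid genes, 2 were called higher and 2 lower (median log2 change -0.70), but 4 and 17 without iTreg 177. Abca1, which exports cholesterol from the cell, had 1.38, 1.30 and 1.49 CPM in Th0 and 12.5, 14.3 and 36.0 CPM in iTreg (log2 change 3.80, SE 0.48, adjusted p = 0.00282), and its relative Abcg1 rose as well (log2 change 1.27, SE 0.10, adjusted p = 0.000819); these were the 2 members called higher. Pmvk (log2 change -1.06, SE 0.34, adjusted p = 0.0381) and Dhcr7 (log2 change -0.85, SE 0.27, adjusted p = 0.0405) were the 2 called lower, and both calls were lost without iTreg 155 (adjusted p = 0.0952 and 0.0828) or any 1 of the Th0 libraries (0.0825 to 0.114). Lower calls numbered 9 with DESeq2, 0 scaled by library size alone or in the fit of 12 libraries or without iTreg 155 or without any 1 of the Th0 libraries and 5 without iTreg 154. In the edgeR fits with no lower call, 0 to 4 sterol genes were lower at an unadjusted p under 0.05. Of 17 unfolded protein response genes, 2 were called higher and 7 lower (median -0.69), and 3 and 13 without iTreg 177. The 2 that rose were the sensor Ern1 (4.92, 4.19 and 5.54 CPM in Th0 and 15.8, 16.0 and 18.1 CPM in iTreg; log2 change 1.65, SE 0.15, adjusted p = 0.00107) and the chaperone Dnajb9 (log2 change 0.98, SE 0.16, adjusted p = 0.00494). Herpud1 fell (-0.65), and Creld2 fell (log2 change -1.001, SE 0.27, adjusted p = 0.0244) but was not called without any 1 of the Th0 libraries (0.0613 to 0.0801). Lower calls numbered 4 with RLE scaling, 3 scaled by library size alone or without iTreg 155 and 1 in the fit of 12 libraries or without any 1 of the Th0 libraries.

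**Figure D4:**
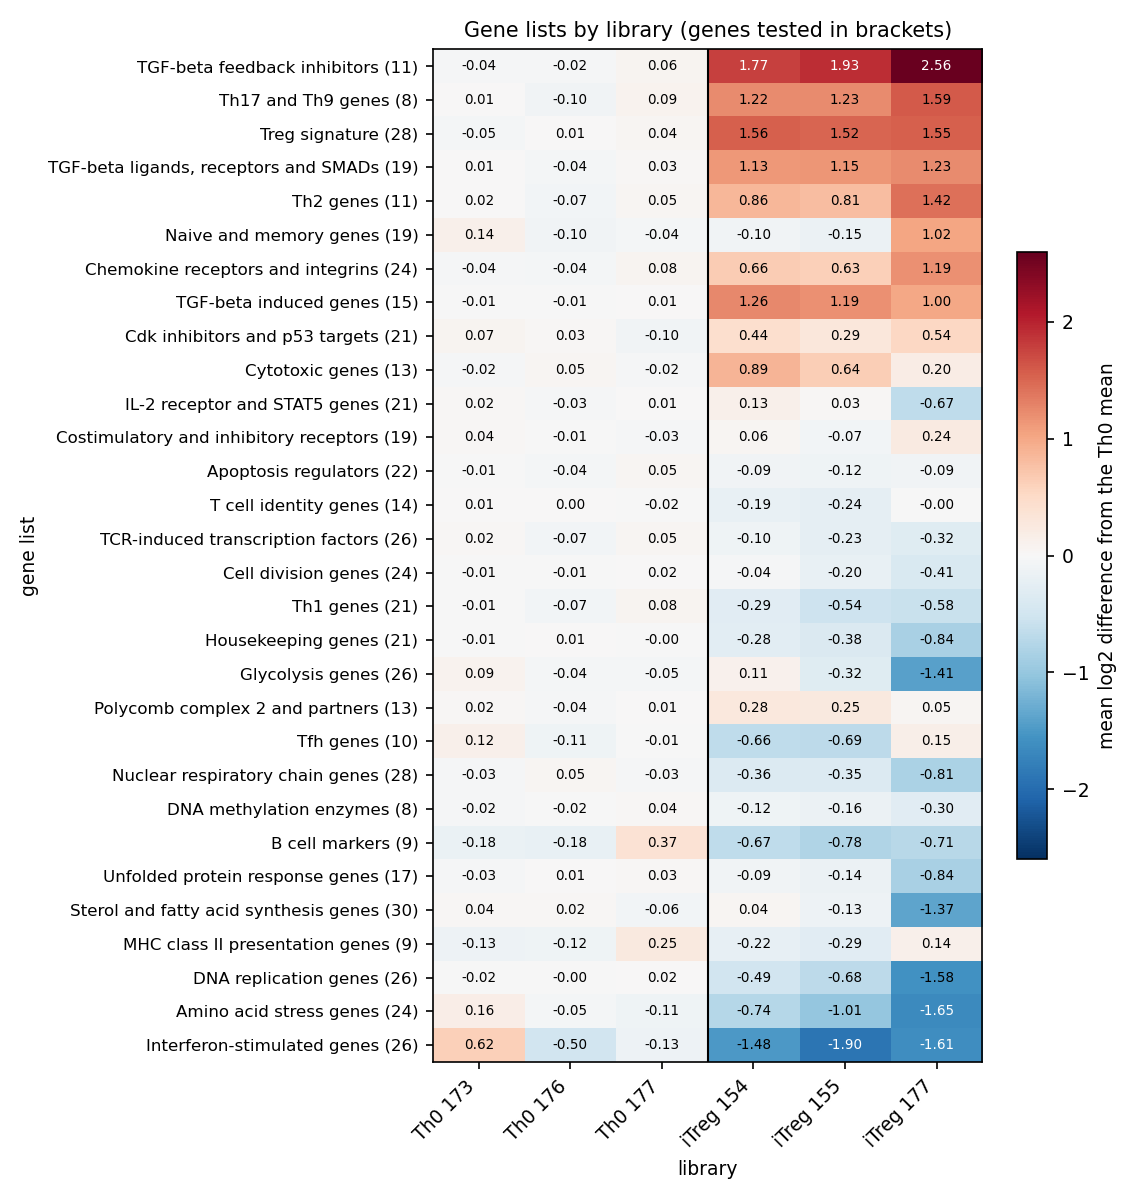
Mean log2 difference from the Th0 mean (colour and number; log2 of CPM plus 0.5) of each gene list with at least 8 tested genes (vertical axis, genes tested in brackets) in each of the 6 control libraries (horizontal axis). The TGF-beta feedback and Treg rows are red in all 3 iTreg columns and the interferon and amino acid rows blue in all 3, whereas the glycolysis, sterol and naive and memory rows differ between iTreg 177 and the other two.

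Subunits of Polycomb repressive complex 2, which writes H3K27me3, and their partners moved both ways. Of 13 tested, 5 were called higher and 6 lower (median log2 change -0.53). Ezh2 and the other core subunits Eed (-0.68) and Suz12 (-0.57) were lower, as were Rbbp4 (-0.70), Phf19 (-0.63) and Aebp2 (-0.53). Housekeeping genes had a median of -0.46, with 12 of 21 called lower, so falls near this size were not particular to the complex. Ezh1, the paralog of Ezh2 used in resting cells (chromosome 11, 101191115 to 101226463), had 34.2, 29.2 and 31.5 CPM in Th0 and 59.9, 66.8 and 109 CPM in iTreg (log2 change 1.20, SE 0.24, adjusted p = 0.00925). The demethylase Kdm6b, which removes the mark (chromosome 11, 69398508 to 69413675), had 21.9, 19.2 and 19.4 CPM in Th0 and 82.5, 72.6 and 79.7 CPM in iTreg (log2 change 1.84, SE 0.10, adjusted p = 0.000407), with a narrow range in both groups. Jarid2, which helps to recruit the complex, rose (log2 change 0.90, SE 0.08, adjusted p = 0.00127), as did Phf1 (log2 change 1.62, SE 0.28, adjusted p = 0.00636). Higher calls numbered 3 in the fit of 12 libraries, and lower calls numbered 2 in the fit of 12 libraries, 3 without Th0 173 or 177 and 1 without Th0 176. Of 8 DNA methylation enzymes, 2 were called higher and 5 lower (median -0.60). The de novo methyltransferases Dnmt3a and Dnmt3b fell (-0.54 and -0.70), against a median of -0.46 for housekeeping genes. The oxidising enzymes split, with Tet1 lower (log2 change -1.47, SE 0.21, adjusted p = 0.00378) and Tet2 (log2 change 0.87, SE 0.10, adjusted p = 0.00228) and Tet3 (1.49) higher. Lower calls numbered 3 scaled by library size alone or without iTreg 155 or without any 1 of the Th0 libraries and 2 in the fit of 12 libraries.

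MHC class II genes moved both ways. Of 9 tested, 4 were called lower, 2 higher and 3 were not called (median log2 change -0.75). H2-Eb1 (log2 change -1.85, SE 0.19, adjusted p = 0.00154), H2-Aa (log2 change -1.63, SE 0.20, adjusted p = 0.00242) and H2-Ab1 (-1.28) fell. The invariant chain Cd74 had 40.2, 44.4 and 68.5 CPM in Th0 and 15.8, 13.5 and 13.6 CPM in iTreg (log2 change -1.95, SE 0.22, adjusted p = 0.00215). Of 9 tested B cell markers, 3 were called lower, 1 higher and 5 were not called, and 5 were called lower without iTreg 177. Ms4a1, which encodes CD20, had 8.21, 8.23 and 14.2 CPM in Th0 and 1.68, 1.43 and 1.57 CPM in iTreg (log2 change -2.82, SE 0.28, adjusted p = 0.00144). Th0 177 was the highest library. Cd22 fell as well (log2 change -2.67, SE 0.39, adjusted p = 0.00427). The 1 called higher was the immunoglobulin joining chain Igj (1.93), a call lost without Th0 173 or 177 (adjusted p = 0.0595 and 0.0591). Cd79a (-0.48) and Cd79b (-0.11) were not called, though Cd79a was without iTreg 177 (-0.68, adjusted p = 0.0129). The part of B cells in these differences was not tested. H2-Ob and H2-Oa, which restrain peptide loading, went up instead (2.40, 2.48 and 2.79 CPM in Th0 and 15.7, 18.4 and 67.3 CPM in iTreg for H2-Ob; log2 change 3.61, SE 0.64, adjusted p = 0.00702; 2.05 for H2-Oa).

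Single markers of other cell types were higher as well, while the other tested members of their lists were not called higher. The members called higher were 1 of 2 tested CD8 T cell markers and 1 of 3 erythroid and platelet markers. Myeloid and dendritic cell markers each had 1 of 2. Cd8a, the CD8 alpha chain, had 0.895, 1.89 and 0.840 CPM in Th0 and 15.8, 17.1 and 8.58 CPM in iTreg (log2 change 3.39, SE 0.43, adjusted p = 0.00282), while Cd8b1, its partner in CD8 T cells, was not called (log2 change 0.35, SE 0.16, adjusted p = 0.103). It was called higher without iTreg 177 (0.41, adjusted p = 0.0222), with voom and sample weights and with scaling by library size alone. Gata1, known from red cell and platelet precursors, had 17.4, 19.7 and 22.7 CPM in Th0 and 73.3, 76.4 and 52.9 CPM in iTreg (log2 change 1.65, SE 0.18, adjusted p = 0.00186), while Klf1 did not pass the filter. Itgam, an integrin chain of myeloid cells, had 0.244, 0.371 and 0.229 CPM in Th0 and 2.59, 2.65 and 24.7 CPM in iTreg (log2 change 5.01, SE 1.19, adjusted p = 0.0159), mostly in iTreg 177, and its call was lost without any 1 of the Th0 libraries (adjusted p = 0.0604 to 0.0628). The dendritic cell marker Xcr1 had 0.488, 0.371 and 0.458 CPM in Th0 and 0.990, 0.857 and 0.645 CPM in iTreg (log2 change 0.80, SE 0.28, adjusted p = 0.0492), and its call was lost without any 1 library other than iTreg 177 (0.108 to 0.159). Bst2, the other dendritic cell marker tested, was called lower. The summed level of that list fell from 134, 98.8 and 101 CPM in Th0 to 39.6, 23.7 and 14.5 CPM in iTreg. Cd68, the other myeloid marker tested, was not called.

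Single genes set iTreg 177 apart from 154 and 155. Of 9103 genes compared, 88 were at least 4-fold apart in 177 from both 154 and 155, 43 of them higher and 45 lower, and 30 of the 88 were called in the comparison of the cultures. Itgae (874 CPM against 54.3 and 75.5) was higher in 177, and Gzmb (3.42 against 72.6 and 41.1), Asns (0.806 against 7.81 and 5.996) and Dab2 (0.846 against 15.6 and 12.6) lower. Foxp3 differed little between the 3.

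**Figure D5:**
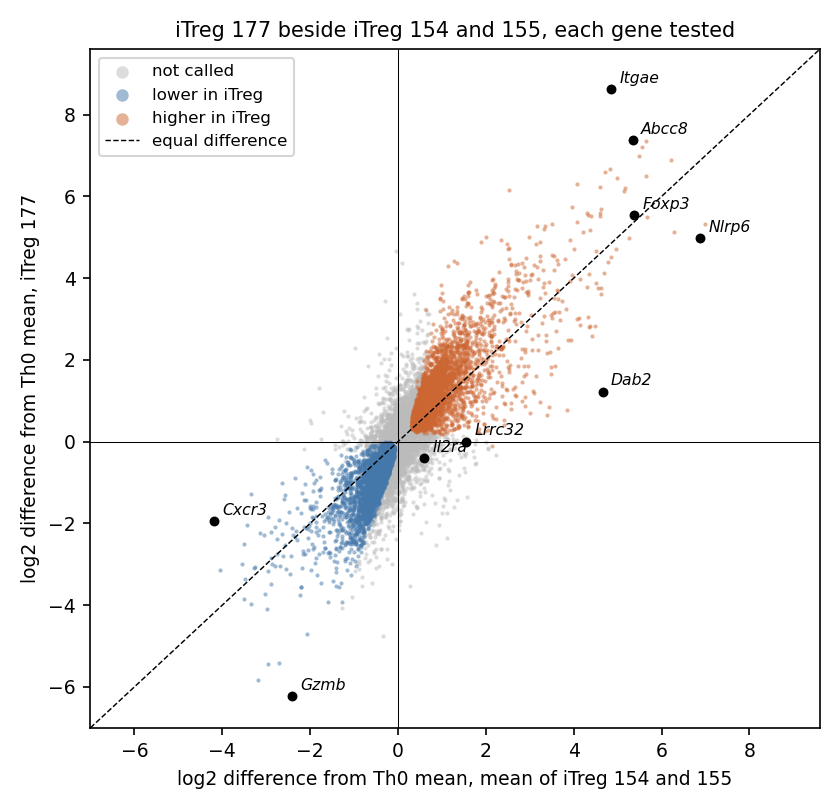
Log2 difference from the Th0 mean in iTreg 177 (vertical axis) against the mean of iTreg 154 and 155 (horizontal axis) for each gene tested (log2 of CPM plus 0.5), coloured by the call of the 6-library comparison, with a dashed line of equal difference. Most called genes lie farther from 0 in 177, Foxp3 lies on the dashed line, Itgae above it and Dab2 and Nlrp6 below it.

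H3K27me3 in control Th0 cells was set beside the RNA changes, as a readout of the same culture from 2 ChIP libraries (11124172 and 12433039 counted reads). Density is CPM per kb of the whole gene interval, for the 8920 of 11952 genes whose interval overlaps no other. Genes higher in iTreg by at least 2-fold had a median density of 0.991 (1128 genes), genes lower by at least 2-fold 0.694 (698 genes) and genes not called 0.535 (4108 genes). Of the genes in the top 10% of density, 313 were in the first class, 92 in the second and 411 in the third. These were 27.7%, 13.2% and 10.0% of the genes of each class. Density falls with the level in Th0, so the classes were also set side by side within ranges of that level. Below 1 CPM in Th0 the medians were 1.45 higher, 1.23 lower and 1.28 not called, and from 1 to 10 CPM they were 1.03, 1.09 and 0.902. From 10 to 100 CPM they were 0.598, 0.541 and 0.493, and over 100 CPM 0.449, 0.413 and 0.421. The gap between the classes was thus smaller within ranges of level than over all genes, and no test was made.

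Of the 12 largest rises, 8 had intervals that overlap no other gene, and 6 of these lay in the top 10% of density in Th0 cells. All 8 had a Th0 mean under 1 CPM. In that range the median density was 1.45 for genes at least 2-fold higher and 1.28 for genes not called. The count of 6 is therefore not read against 10%. Nlrp6 had densities of 3.57 and 4.87 in ChIP libraries 33 and 7, Apol9b 3.39 and 3.41, Plekhd1 2.54 and 2.83, Hepacam2 1.83 and 1.79, Kirrel 1.58 and 1.82 and Abcc8 1.45 and 1.71, all above 1.39, where the top 10% begins. Adamtsl2 had 1.05 and 1.26 and Pyroxd2 0.728 and 0.681. Of the 12 largest falls, 11 had such intervals and 1, Nrn1, lay in the top 10%. Nrn1 had 2.55 and 3.27 and Eomes 2.95 and 5.29, while both were expressed in Th0. Foxp3, Itgae and Nrp1 have intervals that overlap another gene and were left out of this comparison.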

How the data were processed

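RNA-seq read counts of 6 control libraries were analysed, with the 6 Ezh2-deleted RNA libraries used for the difference between genotypes and 2 control H3K27me3 ChIP libraries beside them. RNA of the cultured CD4 T cells was extracted with RNeasy columns and made into libraries with the TruSeq RNA kit, per the labels. The authors deposited raw read counts per gene, and raw ChIP read counts per gene interval. The tools were Trimmomatic 0.30, TopHat2 2.0.6 for RNA, Bowtie2 2.1.0 for ChIP and featureCounts 1.4.2, on mm10, per the submitters' processing notes. The strand setting, the treatment of multi-mapping reads and the gene annotation are not given in the sources used here, so values of overlapping or near-identical genes are uncertain. Reads carry no molecular identifiers, so intervals and the floor of 3 reads for a count of 0 cover counting error only.

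Counts of 23420 genes were used as deposited; 6821 had no read in the 6 libraries. The test was edgeR 4.0.16 under R 4.3.3. Scaling was TMM, and filterByExpr at a minimum of 10 counts kept 12179 genes and left out 11241. The model was a robust quasi-likelihood fit of the 6 libraries with group as the only term, with two-sided tests and Benjamini-Hochberg adjustment over all genes tested, with 0.05 as the threshold. The common dispersion was 0.0398. SE is the size of the log2 change divided by the square root of the F statistic of its test. The script was tested on simulated data, where the share of false calls was above the adjusted threshold and many changes of 2-fold were missed. The difference between genotypes came from 1 fit of 12 libraries and 4 groups (12845 genes). Alternatives were DESeq2 1.42.0, limma 3.58.1 (voom with sample weights), RLE or library size scaling, no filter, all 12 libraries, and leaving out libraries. Gene coordinates are those of the deposited ChIP intervals (mm10). Promoters came from a RefSeq table (GRCm38.p6).

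The members and the 35 gene lists (619 symbols, 616 found, 7 under another symbol) were chosen with earlier results of these data known, and lists are described by counts and medians without a test. Named genes were a fixed set, 12 rises and 12 falls (the called genes of largest fitted change whose groups did not overlap and reached a mean of 10 CPM), and up to 4 called members per list with the smallest p. Predicted genes, antigen receptor segments, sex-linked marker genes and small RNA genes were left out of the rises and falls. A few genes that the rule names are not reported here.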

Additional observations from a re-analysis of the deposited data

Results flagged for a closer look

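The change from Th0 to iTreg in control cells differed from that in Ezh2-deleted cells for 44 of the 178 named genes that could be tested, against 577 of 12845 genes tested (4.49%). Each was picked out by the test of that difference itself, in a fit of all 12 libraries (edgeR quasi-likelihood test, adjusted p under 0.05). Most named genes were chosen for a change in control cells, so neither this share nor the larger changes in control cells is read against the share of all genes. The values in brackets are differences of log2 changes, control minus deleted. Of the 44, 36 had the larger change in control cells, 8 the larger change in deleted cells, and 19 had opposite signs in the 2 genotypes. All 44 were called without the deleted iTreg library of 21910114 counted reads, which stands apart from its replicates and whose removal raised the 577 to 2552, and 42 without the control iTreg library 177, the exceptions being Pyroxd2 (adjusted p = 0.0541) and Ifngr2 (0.0508).

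Among regulatory T cell and TGF-beta genes, the log2 change of Ctla4 was 0.49 in control and 4.44 in Ezh2-deleted cells (-3.95, adjusted p = 0.00403), and that of Nrp1 was 4.68 in control and 0.76 in Ezh2-deleted cells (3.92, adjusted p = 0.000896). Foxp3 was not among them. Further genes of these lists were Entpd1 (1.98), Gpr15 (4.73), Furin (2.46), Smad3 (1.49), Sox4 (4.90), Id1 (4.56) and Dab2 (7.71). Of the largest rises, Hepacam2 (8.62), Nlrp6 (8.76), Cx3cr1 (6.04), Plekhd1 (4.70), Pyroxd2 (4.91) and Apol9b (3.96) had the higher change in control cells, and of the largest falls, Isg15 (-4.84), Ifit1 (-5.49), Usp18 (-3.45), Ms4a4c (-2.82), Tbkbp1 (-3.64), Gimap7 (-4.81) and Nrn1 (-5.30) had the lower change. Other interferon-stimulated genes with a difference were Ifi44 (-8.04), Ifih1 (-2.34) and Bst2 (-2.04); Ifit1 had log2 changes of -3.80 in control and 1.69 in Ezh2-deleted cells.

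T helper, cytotoxic and homing genes gave Il12rb2 (-3.59), Txk (1.496), Ifngr2 (1.4), Maf (4.21), Ccr4 (3.81), Ccr8 (3.04), Cxcr4 (3.17), Prf1 (5.11), Ctsw (2.03) and Cd200r1 (3.46). Signalling, chromatin and presentation genes gave Pim2 (-2.33), Jun (-1.19), Cebpb (-1.43), Kdm6b (1.25), H2-Ob (5.41) and B2m (-1.14). The B cell markers gave Ms4a1 (4.77), Cd22 (4.42) and Igj (7.501). The part of B cells in the Th0 cultures in these differences was not tested.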

How the results depend on the processing

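The number of genes called was 4027 with all 12 RNA libraries in the fit against 6500, and leaving out 1 library gave 3248 to 8572, lowest without a Th0 library (3775, 3248 and 3553 without 173, 176 and 177). With the 2-fold condition the number stayed between 1636 and 2898 when 1 library was left out, and DESeq2 called 7221 and 2533. The difference between genotypes was called for 2552 genes without the deleted iTreg library of 21910114 counted reads and for 650 without control iTreg 177, against 577. Over all intervals the H3K27me3 medians were 0.895 for genes at least 2-fold higher and 0.617 for genes at least 2-fold lower. On the forward strand alone, the interferon response element was in 1.49% and 2.01% of promoters of genes higher and lower, and CAGACA in 8.94% and 8.63%. TTGCATCA was in 0.827% of promoters of genes lower (7 promoters).

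Of 2286 values of single genes under an alternative (176 genes), 2105 kept direction and side of the threshold, 137 in 48 genes lost their call, 28 in 6 genes gained one, and 16 in 5 genes changed sign. The last were Gpr83 at 0.028 by library size alone, 0.26 with voom, 0.29 without iTreg 177 and 0.30 without both libraries numbered 177 (-0.33 to 0.29 without any 1 library), with the last 2 called (adjusted p = 0.00482 and 0.0121); Tgfb1 at 0.023, 0.089, 0.11 and 0.098 in the same order (-0.18 to 0.11); Smad3 at -0.030, -0.021 and -0.011 with voom, without iTreg 177 and without both (-0.021 to 0.14), and Tcf7 at -0.31, -0.36 and -0.42 (-0.36 to 0.46), whose lower values were called (adjusted p = 0.0348, 0.00333 and 0.000355); and Ifng at 0.15 without Th0 177 and 0.22 without both (-0.76 to 0.15). Voom gave iTreg 177 a weight of 0.0622. DESeq2 gave no adjusted p for Itgae and Itgam. The cause of these moves was not tested, beyond the smaller number of libraries. No paired analysis was possible because the groups share only the number 177. Depth limits Il2, Il4 and Il10, which lie below the filter.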
